A study of Mus musculus with 9 samples.

Results

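Genes that define astrocytes and mark their maturation were followed across 9 RNA-seq libraries of a mouse co-culture experiment. The 9 genes, Gfap, Aqp4, Aldoc, Fgfr3, Slc4a4, Aldh1l1, Mlc1, S100b and Sox9, were taken as a list of names, and all 9 were found among the 49315 gene IDs of the count table. The study asked what tumor cells gain when astrocytes pass mitochondria to them, and its sorted astrocytes and SB28 cells were sequenced after co-culture. SB28 is a mouse glioblastoma line on the C57BL6 background that expresses GFP. The astrocytes were primary cells from the subventricular zone of newborn C57BL6 mito::mKate2 mice, which carry the red fluorescent protein mKate2 in their mitochondria under the broadly active CAG promoter, so that the reporter by itself does not mark astrocytes. Both cell types were grown together in equal numbers, untreated, for 2 days in DMEM F12 with 2% FBS, 5% N2 supplement, and EGF and FGF at 20 ng/ml, as the labels give it (the study's methods give its medium other amounts of serum and N2), and no astrocytes or SB28 cells cultured alone were compared here. The 3 groups were astrocytes, SB28 cells without astrocyte mitochondria (mKate2- SB28) and SB28 cells that had taken them up (mKate2+ SB28), with 3 libraries of each, sorted from 3 distinct co-cultures. The sort gates written in the labels place the CellTrace Violet dye on the tumor cells, whereas the study's methods place it on the astrocytes, so libraries were grouped by their names. Total counts were 24454561, 32707569 and 35135662 in astrocyte replicates 1, 2 and 3, 27187348 to 35891589 in mKate2- SB28 libraries and 34175016 to 39287841 in mKate2+ SB28 libraries.

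Astrocytes arise from radial glia under transcription factors that include Sox9 and the NFI family, and they mature after birth. Maturation brings the water channel Aqp4, potassium and bicarbonate transport, glutamate uptake and gap junction coupling, and much of this machinery gathers in endfeet on blood vessels, held by the dystrophin complex. Gfap, an intermediate filament protein, is the classical marker, although its level varies widely between astrocytes and rises when they become reactive, partly through the JAK-STAT pathway, whose factors bind the palindrome TTCNNNGAA (N is any base).

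Because STAT factors are known regulators of Gfap, this palindrome was searched in RefSeq windows on GRCm38.p6 that run from 250 bases before to 50 bases after each annotated start. Windows were given for 7 of the 9 genes, 10 windows in all, and Aqp4 and Sox9 had none. A match stood in windows of 2 genes, Gfap and Aldoc, and in 8.3% of all 32851 windows. The stretches with the matches in capitals are shown from 5′ to 3′, the first on the minus strand at chr11:102897194-102897262, where the match spans the annotated start at 102897200 (bases -2 to 7), and the second on the plus strand at chr11:78324014-78324183, where the matches lie 124 to 116 and 83 to 75 bases before a start at 78324198.
Gfap: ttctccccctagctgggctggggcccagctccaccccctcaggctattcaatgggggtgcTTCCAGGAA
Aldoc: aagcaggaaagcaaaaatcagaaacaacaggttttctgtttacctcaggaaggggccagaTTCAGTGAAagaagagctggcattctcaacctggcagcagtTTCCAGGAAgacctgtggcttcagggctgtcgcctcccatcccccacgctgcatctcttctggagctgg
The letters TTCCAGGAA occur in both stretches. None of the 10 windows held the NFI palindrome, TTGGC and GCCAA with 5 bases between them (0.0365% of all windows), the SOX-type letters AACAAT (10.7%) or TATAAA (13.6%), each searched on both strands. A match of letters is a description of the sequence, and binding was not measured.

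Of the 9 genes, 8 were higher in every astrocyte library than in every SB28 library, and the exception was S100b. This separation held for 34.8% of the 13450 genes above 1 CPM (counts scaled to a library total of 1000000) in at least 2 of the 9 libraries. The distance between the cell types ran from more than 100-fold for Mlc1 to less than 2-fold for Sox9. Within the astrocyte libraries, the genes fell apart by how much they differed between replicates, from Aldoc and Aqp4, at 10.7 and 10.6 times as much in the highest as in the lowest library, to Sox9, at 1.05 times.

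Aqp4 (ENSMUSG00000024411), the water channel of astrocyte endfeet, had 5.64, 6.82 and 59.7 CPM in astrocyte replicates 1, 2 and 3. It had 0.147, 0.0557 and 0.402 CPM in mKate2- SB28 replicates 1, 2 and 3 and 0.25, 0.0255 and 0.380 CPM in mKate2+ SB28 replicates 1, 2 and 3, which were 1 to 13 counts per library. Astrocyte replicate 3 stood far above the other astrocyte libraries, and the lowest astrocyte library was 14.0 times the highest SB28 library. The log2 fold change was -6.88 (SE 1.24, adjusted p = 0.00187, edgeR's quasi-likelihood test with Benjamini-Hochberg adjustment) in mKate2- SB28 against astrocytes and -6.72 (SE 1.25, edgeR adjusted p = 0.00262) in mKate2+ SB28. Without astrocyte replicate 3 these were -4.96 and -4.80, without mKate2- SB28 replicate 3 the first was -7.87 and without mKate2+ SB28 replicate 3 the second was -7.36, with the call kept each time.

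Mlc1 (ENSMUSG00000035805, chromosome 15 of GRCm38 from 88955884 to 88979007), a membrane protein of astrocyte junctions and endfeet whose loss causes a leukoencephalopathy with cysts, had 212, 218 and 385 CPM in astrocyte replicates 1, 2 and 3. It had 1.47, 1.17 and 3.72 CPM in mKate2- SB28 replicates and 1.80, 1.55 and 1.93 CPM in mKate2+ SB28 replicates. Replicate 3 was again the highest astrocyte library, and the lowest astrocyte library was 57.1 times the highest SB28 library, the widest gap among the 9 genes. The log2 fold changes were -6.99 (SE 0.49, edgeR adjusted p = 2.46e-05) in mKate2- SB28, or -7.67 without mKate2- SB28 replicate 3, and -7.19 (SE 0.31, edgeR adjusted p = 6.27e-06) in mKate2+ SB28.

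Slc4a4 (ENSMUSG00000060961, chromosome 5 from 88886818 to 89239653) encodes the sodium bicarbonate cotransporter of astrocytes. Its level was 58.1, 84.9 and 125.6 CPM in astrocyte replicates 1, 2 and 3, 2.83, 4.63 and 3.69 CPM in mKate2- SB28 replicates and 3.63, 4.12 and 3.86 CPM in mKate2+ SB28 replicates. The groups did not overlap, and the astrocyte libraries differed 2.16-fold. The log2 fold changes were -4.56 (SE 0.32, edgeR adjusted p = 2.49e-05) in mKate2- SB28 and -4.45 (SE 0.30, edgeR adjusted p = 2.66e-05) in mKate2+ SB28.

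Gfap (ENSMUSG00000020932, chromosome 11 from 102887336 to 102900912) had 8.83, 3.42 and 19.4 CPM in astrocyte replicates 1, 2 and 3, that is 216, 112 and 683 counts. The SB28 libraries held 3 to 8 counts each, between 0.0764 and 0.268 CPM with a median of 0.171 CPM. Gfap differed 5.68-fold between astrocyte libraries and, unlike Aqp4, was lowest in replicate 2, where it was still 12.8 times the highest SB28 library. The log2 fold changes were -5.72 (SE 0.73, edgeR adjusted p = 0.000341) in mKate2- SB28 and -6.06 (SE 0.77, edgeR adjusted p = 0.000419) in mKate2+ SB28, and -4.95 and -5.31 without astrocyte replicate 3.

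**Figure D1:**
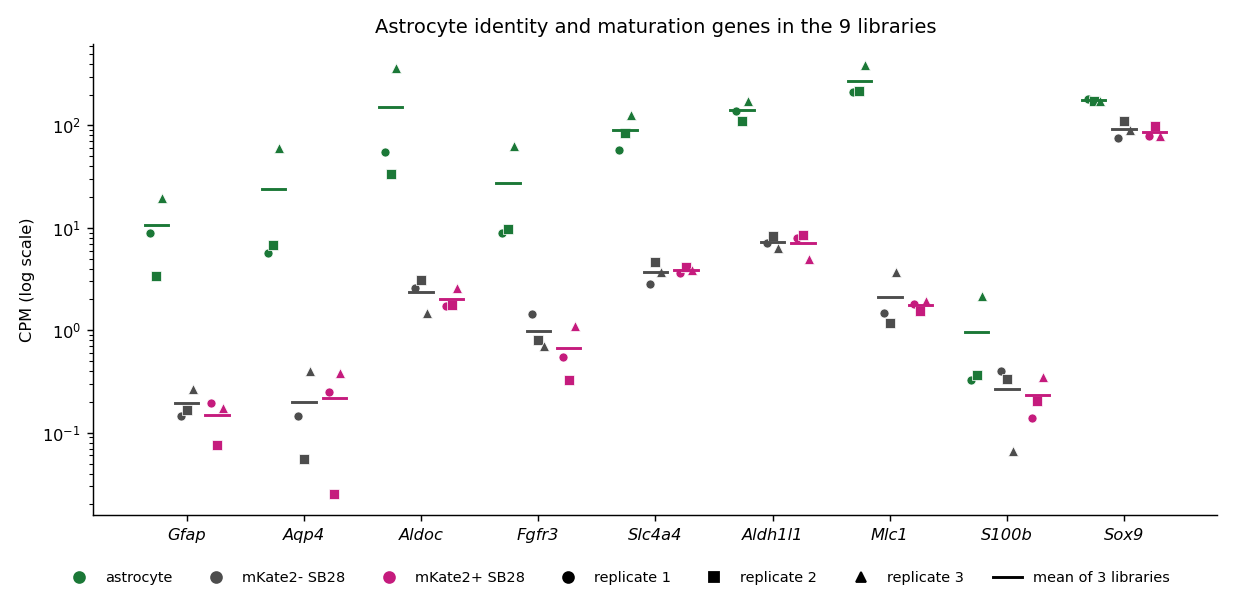
Level of each gene in CPM (log axis) in the 9 libraries, with colors for the 3 groups, marker shapes for replicates and a short bar for the mean of each group. The astrocyte libraries lie above all SB28 libraries for each gene except S100b, and replicate 3 is the highest astrocyte library for each gene except Sox9.

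Both enzymes on the list have long served to label astrocytes. Aldoc (ENSMUSG00000017390, chromosome 11 from 78322968 to 78327781), the brain form of the glycolytic enzyme aldolase, had 55.6, 33.8 and 361.8 CPM in astrocyte replicates 1, 2 and 3. It had 2.61, 3.06 and 1.47 CPM in mKate2- SB28 replicates and 1.72, 1.76 and 2.57 CPM in mKate2+ SB28 replicates. Replicate 3 was 6.50 times the next astrocyte library, and the lowest astrocyte library was 11.03 times the highest SB28 library. The log2 fold changes were -5.94 (SE 1.00, edgeR adjusted p = 0.00136) in mKate2- SB28 and -6.14 (SE 1.00, edgeR adjusted p = 0.00139) in mKate2+ SB28, and -4.21 and -4.43 without astrocyte replicate 3.

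Aldh1l1 (ENSMUSG00000030088, chromosome 6 from 90486427 to 90600203), a folate enzyme found in astrocytes across the brain, was steadier, with 139.7, 111.3 and 172.1 CPM in astrocyte replicates 1, 2 and 3. SB28 cells had 7.06, 8.41 and 6.33 CPM in mKate2- replicates and 7.88, 8.48 and 4.92 CPM in mKate2+ replicates. The groups were far apart and the astrocyte libraries differed only 1.55-fold, with log2 fold changes of -4.26 (SE 0.20, edgeR adjusted p = 7.8e-06) in mKate2- SB28 and -4.23 (SE 0.28, edgeR adjusted p = 2.45e-05) in mKate2+ SB28. Its exons share 499 bases with the antisense gene Gm15756 and 105 bases with the long noncoding RNA gene Gm45901, and whether strand was used in counting is not given in the sources used here, so reads in these stretches are uncertain.

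Fgfr3 (ENSMUSG00000054252, chromosome 5 from 33721674 to 33737068) encodes a receptor for fibroblast growth factors, which were present in the medium of all groups. Its level was 8.83, 9.72 and 63.1 CPM in astrocyte replicates 1, 2 and 3, 1.43, 0.808 and 0.704 CPM in mKate2- SB28 replicates and 0.555, 0.331 and 1.11 CPM in mKate2+ SB28 replicates. Only astrocyte replicate 3 was high, although the lowest astrocyte library was still 6.16 times the highest SB28 library. The log2 fold changes were -4.77 (SE 0.88, edgeR adjusted p = 0.00209) in mKate2- SB28 and -5.29 (SE 0.95, edgeR adjusted p = 0.00221) in mKate2+ SB28, and -3.24 and -3.77 without astrocyte replicate 3. Its exons share 998 bases with G630022F23Rik on the opposite strand, where the source of reads is uncertain in the same way.

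S100b (ENSMUSG00000033208, chromosome 10 from 76253853 to 76261159), a calcium-binding protein of mature astrocytes, was barely detected. It had 8, 12 and 76 counts in astrocyte replicates 1, 2 and 3, or 0.327, 0.367 and 2.16 CPM, and 2 to 12 counts in the SB28 libraries, or 0.0670 to 0.405 CPM. The groups overlapped, and only astrocyte replicate 3 stood above the SB28 libraries. It was the only gene of the 9 that did not pass the filter of 1 CPM in at least 2 libraries. Tested without a filter, its log2 fold changes were -1.74 (SE 0.80, edgeR adjusted p = 0.11) in mKate2- SB28 and -1.89 (SE 0.78, edgeR adjusted p = 0.0796) in mKate2+ SB28, short of the threshold.

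Sox9 (ENSMUSG00000000567, chromosome 11 from 112782224 to 112787760), the transcription factor that starts astrocyte formation and is also active in radial glia and many gliomas, was the one gene that both cell types expressed strongly. It had 180.6, 172.6 and 173.0 CPM in astrocyte replicates 1, 2 and 3, 75.3, 111.3 and 90.4 CPM in mKate2- SB28 replicates and 79.3, 99.4 and 79.6 CPM in mKate2+ SB28 replicates. Every astrocyte library exceeded every SB28 library, the closest pair by 1.55-fold. The log2 fold changes of -0.91 (SE 0.15, edgeR adjusted p = 0.00125) in mKate2- SB28 and -0.95 (SE 0.15, edgeR adjusted p = 0.00107) in mKate2+ SB28 passed the adjusted p of 0.05 but not the minimum of 1 on the log2 scale, and lay close to it. The size passed 1 without mKate2- SB28 replicate 2 (-1.07) and without mKate2+ SB28 replicate 2 (-1.1).

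**Figure D2:**
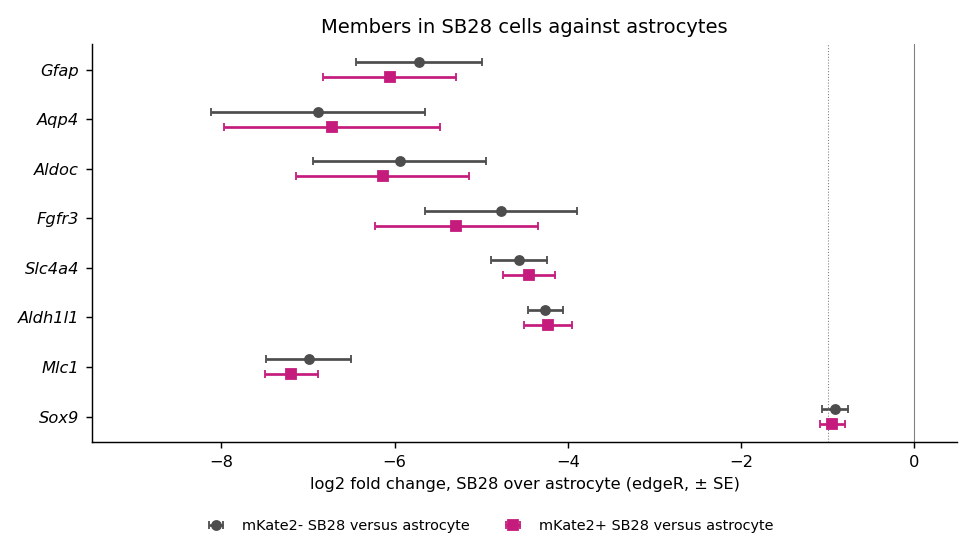
Log2 fold change of the 8 tested genes in mKate2- SB28 (circles) and mKate2+ SB28 (squares) against astrocytes, with bars of 1 SE from edgeR and a dotted line at the threshold of -1. The other genes lie below -4 in both comparisons, Sox9 lies between it and 0, and the bars are widest for Aqp4, Aldoc, Fgfr3 and Gfap.

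In all, 7 of the 8 tested genes were called lower in mKate2- SB28 than in astrocytes (adjusted p below 0.05 and absolute log2 fold change above 1, edgeR), against 22.4% of the 13356 genes tested (11.5% were called higher), and the median log2 fold change was -5.25, against -0.038 over all genes. In mKate2+ SB28, 7 of 8 were called lower, against 22.8% of 13342 genes (12.2% higher), with medians of -5.67 and -0.018. Both comparisons use the same astrocyte libraries. Between the SB28 populations, the 6 genes above the filter had log2 fold changes, mKate2+ over mKate2-, of 0.02 for Aldh1l1 (SE 0.24), 0.11 for Slc4a4 (SE 0.22), -0.04 for Sox9 (SE 0.17), -0.20 for Aldoc (SE 0.32), -0.21 for Mlc1 (SE 0.42) and -0.52 for Fgfr3 (SE 0.48). None was called (edgeR, smallest adjusted p = 0.923, and 0 with an unadjusted p below 0.05), and 0.0% of all 11854 genes were called, with 241 at an unadjusted p below 0.05 and 0 called by DESeq2. By the study's thresholds for this pair of groups, applied here in both directions whereas the study took higher genes (fold above 1.5, unadjusted p below 0.05 and mean count above 50), 0 of the 6 genes and 0.363% of all genes were counted. The ranges of the 2 SB28 populations overlapped for all 9 genes. Without mKate2- SB28 replicate 3 the value for Mlc1 was 0.46.

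The level of these genes in SB28 libraries was set beside 78 other astrocyte genes, each above 50 CPM on average in astrocytes and with an astrocyte mean of 100 or more times the SB28 mean. Summed, these 78 genes stood at 0.657, 0.509 and 1.2% of their astrocyte mean in mKate2- SB28 replicates 1, 2 and 3 and at 0.71, 0.334 and 0.728% in mKate2+ SB28 replicates 1, 2 and 3. The choice of the 78 genes holds their level near or below 1%, so the distance of other genes from them follows from that choice, and only the order of the libraries is read. The 78 genes were highest in mKate2- SB28 replicate 3 and lowest in mKate2+ SB28 replicate 2. The highest library was also mKate2- SB28 replicate 3 for Mlc1 (1.37% of its astrocyte mean), for Gfap (8 counts, with 7 in the next) and for Aqp4 (12 counts, with 13 in the deeper mKate2+ SB28 replicate 3). It was another library for the other members, mKate2- SB28 replicate 1 for Fgfr3 (5.27%) and S100b (42.5%), mKate2- SB28 replicate 2 for Aldoc (2.04%), Slc4a4 (5.17%) and Sox9 (63.4%), and mKate2+ SB28 replicate 2 for Aldh1l1 (6.01%). The lowest library was mKate2+ SB28 replicate 2 for Gfap (0.723%), Aqp4 (0.106%) and Fgfr3 (1.22%), as for the 78 genes, and mKate2- SB28 replicate 3 for Aldoc (0.98%) and S100b (7.04%). It was mKate2- SB28 replicate 2 for Mlc1 (0.43%), mKate2- SB28 replicate 1 for Slc4a4 (3.16%) and Sox9 (43.0%), and mKate2+ SB28 replicate 3 for Aldh1l1 (3.49%). The part of astrocyte RNA in the values of the SB28 libraries was not tested. In these bulk libraries, fewer cells of a type and less RNA per cell cannot be told apart.

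**Figure D3:**
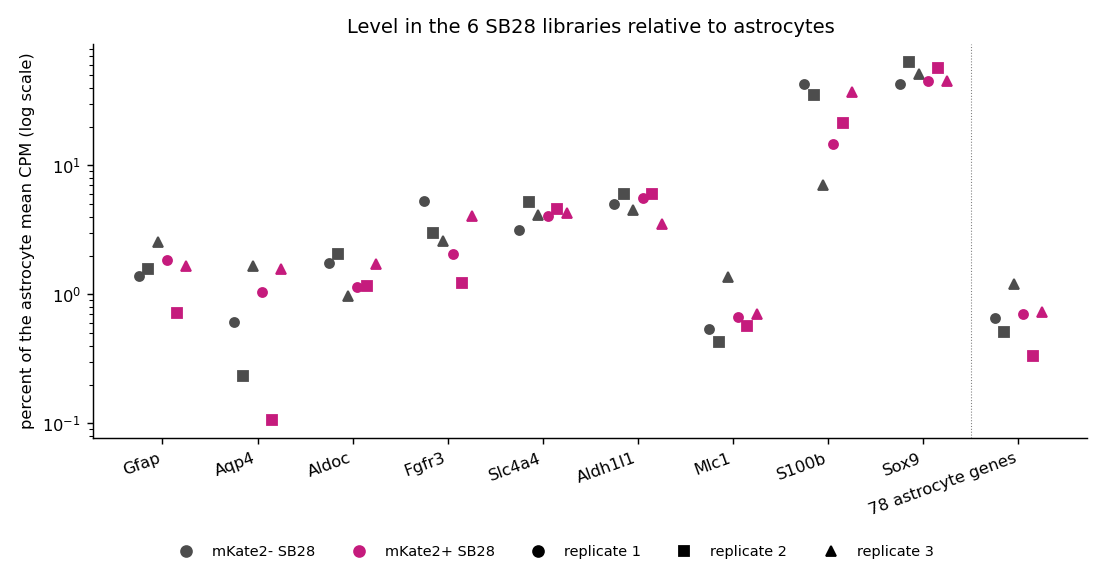
Level of each gene in the 6 SB28 libraries as a percentage of its mean CPM in astrocytes (log axis), with the summed level of 78 other astrocyte genes at the right. The 78 genes are low by their selection, and Mlc1 and the 78 genes are both highest in mKate2- SB28 replicate 3.

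In the other direction, genes that lead in SB28 cells were found in the astrocyte libraries. Of 7471 genes above 20 CPM in SB28, 0 reached 10 times the astrocyte mean, and the highest ratio was 8.62, for Gpr149, a receptor gene named after its values were seen, with 14.4, 28.4 and 16.6 CPM in astrocyte replicates 1, 2 and 3 and 155.6 to 199.6 CPM in SB28 libraries. By contrast, 446 of 7907 genes above 20 CPM in astrocytes exceeded the SB28 mean by more than 10 times. The 53 genes above 20 CPM in SB28 and more than 5 times the astrocyte mean stood, summed, at 14.4, 20.8 and 15.2% of their SB28 mean in astrocyte replicates 1, 2 and 3. The minimum of 5 times by itself keeps the mean of these shares below 20%. The part of SB28 RNA in the astrocyte values, and in particular in those of genes that SB28 cells also express, such as Sox9, was not tested.

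Per length of exon, the order of the genes in astrocytes was Mlc1, Aldoc, Sox9, Aldh1l1, Slc4a4, Aqp4, Fgfr3, Gfap and S100b. Mlc1 had 307.8 ± 128 TPM (SD, n = 3; counts per kilobase of exon, scaled to 1000000 per library), Aldoc 148.3 ± 186, Sox9 132.8 ± 13.04 and Aldh1l1 97.7 ± 23.5 TPM. Slc4a4 followed at 26.5 ± 11.8, Aqp4 at 12.5 ± 16.4, Fgfr3 at 12.3 ± 14.4, Gfap at 7.85 ± 6.44 and S100b at 2.07 ± 2.34 TPM (SD, n = 3). Of the neighbors in this order, only Aldh1l1 and Slc4a4 had ranges that did not overlap. The order rests in part on replicate 3, since Aldoc, at 46.1 and 35.5 TPM in replicates 1 and 2, was below Sox9 and Aldh1l1 there. Gfap was below Aqp4 and Fgfr3 in replicates 2 and 3 but above both in replicate 1, at 5.67 TPM against 2.45 and 3.34 TPM. In SB28 cells Sox9 came first, at 72.5 ± 19.2 TPM in mKate2- and 63.1 ± 4.65 TPM in mKate2+ cells (SD, n = 3), apart from Aldh1l1 at 5.17 ± 0.869 and 4.76 ± 1.25 TPM.

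The 3 astrocyte libraries were then compared with one another. Replicate 3 was the highest in 8 of the 9 genes, and replicate 1 in Sox9. Over all, replicate 3 was the highest for 39.0%, replicate 1 for 34.1% and replicate 2 for 26.9% of the 13004 genes above 1 CPM in at least 2 of them. It exceeded both other libraries by more than 2 times in Gfap, Aqp4, Aldoc, Fgfr3 and S100b. Leaving out S100b, which did not pass the filter, these were 4 of 8 genes, against 4.15% of all genes, and the same excess occurred in 0.531% of genes for replicate 1 and 0.384% for replicate 2. The highest astrocyte library was 3.92 times the lowest in the median of the 8 genes and 1.38 times in the median of all 13004. With 3 libraries of 1 group, which genes vary together can be described but not tested.

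Ordered by how much they differed between libraries, the genes ran from Aldoc and Aqp4 to Sox9, but not all had the same order of libraries. Likeness of pattern was measured as the root mean square difference between 2 genes in log2(CPM + 0.5), each centred on its mean over the astrocyte libraries. The values were not scaled, so this measure reflects the size of a swing as well as its shape. Mlc1 and Fgfr3 had the same order of replicates and differed by 0.881, whereas Aldh1l1 and Sox9, which lay near each other, had different orders. Aqp4 and Fgfr3 differed by 0.224, Aldoc and Fgfr3 by 0.379 and Aqp4 and Aldoc by 0.397, and these 3 genes had the widest swings, 10.6-, 7.15- and 10.7-fold for Aqp4, Fgfr3 and Aldoc. Mlc1 differed by 0.205 from Slc4a4 and by 0.231 from Aldh1l1, with swings of 1.81-, 2.16- and 1.55-fold for Mlc1, Slc4a4 and Aldh1l1, but Slc4a4 and Aldh1l1 differed by 0.395, and Aldh1l1 was nearer to Sox9, at 0.255. The SD of log2(CPM + 0.5) was 1.83 for Aqp4, 1.79 for Aldoc, 1.56 for Fgfr3 and 1.17 for Gfap, all at or above the 98.0th percentile of the 13004 genes, and 0.0367 for Sox9, at the 2.06th percentile. Gfap was near none of the others, at 0.539 from S100b, the nearest, and 0.956 from Sox9, the farthest. It was 2.58 times as high in replicate 1 as in replicate 2, Aldoc 1.64 and Aldh1l1 1.26 times, whereas Aqp4, Fgfr3, Mlc1, Slc4a4 and S100b were higher in replicate 2 than in replicate 1.

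**Figure D4:**
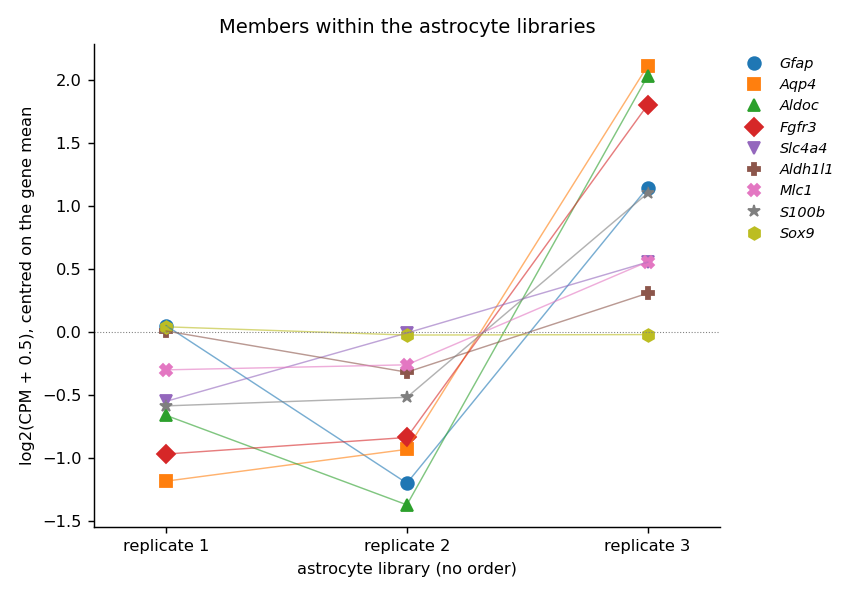
Log2(CPM + 0.5) of each gene in the 3 astrocyte libraries, centred on the mean of the gene, with thin lines joining the values of a gene (the replicates have no order). Aqp4, Aldoc and Fgfr3 lie highest in replicate 3, Slc4a4, Mlc1 and Aldh1l1 rise less, and Sox9 is level.

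The genes most like Gfap in the astrocyte libraries, among 10331 genes above 5 CPM in each, were Ncan, Plcg2, Igfbp2, Thy1 and Adgrb2, at root mean square differences of 0.04 to 0.20. Ncan, which encodes the brain matrix proteoglycan neurocan, had 51.6, 22.2 and 119.1 CPM in astrocyte replicates 1, 2 and 3. Over all 9 libraries, the genes most like Gfap among 13431 included Tceal3, Efhd1, Tmem229a and Mdfi, at 0.17 to 0.22. The mean pattern of the 9 genes was matched most closely by Aldh3a1, Tnik, Pald1, Npnt and Boc, at 0.02 to 0.07, and Npnt, which encodes the matrix protein nephronectin, had 32.5, 32.1 and 101.0 CPM. With 3 points per gene, this likeness is a description of these libraries.

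Most but not all other expressed genes of mature astrocytes also stood highest in replicate 3. Of 35 such genes, 27 were expressed in astrocytes, and 18 of these were highest in replicate 3, 6 in replicate 1 and 3 in replicate 2. Over all expressed genes these shares were 39.0, 34.1 and 26.9%. The median centred log2 level of the 27 was -0.22, -0.22 and 0.33 in replicates 1, 2 and 3. It was -0.42, -0.58 and 0.85 for the 8 expressed genes of the main list and -0.032, 0.014 and 0.024 for all genes. Sparcl1, which encodes the synapse-organizing protein hevin, had 29.9, 14.8 and 716 CPM, and Chrdl1, a secreted inhibitor of bone morphogenetic proteins, had 4.99, 18.01 and 177.5 CPM. Tril, with 7.44, 4.83 and 61.0 CPM, and the potassium channel Kcnj10, with 20.1, 25.2 and 61.4 CPM, had the same highest library. Apoe, the main lipid carrier of astrocytes, was level at 263.8, 260.3 and 270.2 CPM, as Sox9 was. Acsbg1 and Mt3, named after their values were seen, were lowest in replicate 3, at 0.544 and 0.532 times the higher other library. The connexin Gjb6, a marker of mature astrocytes, had 0 counts in all astrocyte libraries, where 3 counts would be 0.123, 0.0917 and 0.0854 CPM. Against astrocytes, 21 of the 27 tested genes were lower and 2 higher in mKate2- SB28, and 21 were lower and 2 higher in mKate2+ SB28, beside 22.4 and 22.8% lower and 11.5 and 12.2% higher over all genes. The higher ones in both were Pla2g7, a phospholipase gene, and Slc14a1, a urea transporter gene, named after their values were seen.

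Genes of earlier stages were read in the same way. The 18 transcription factors of astrocyte formation, 17 of them expressed, were highest in replicate 1 in 8 cases and in replicate 3 in 8. Over all expressed genes these shares were 34.1 and 39.0%. The medians of the transcription factors were 0.19, -0.30 and 0.20 (0.23, -0.32 and 0.18 with TMM scaling). Among them, Lhx2 had 70.7, 52.7 and 75.1 CPM, Sox8 42.8, 28.0 and 40.8 CPM, and Pax6 3.88, 7.25 and 10.4 CPM in astrocyte replicates 1, 2 and 3, and Dbx2 was at most 4.29 CPM. Zbtb20 and Nfix, the most abundant, had 465.4 to 700.9 and 485.3 to 625.0 CPM. Of the 17, 16 were lower in either SB28 population than in astrocytes and 0 higher, beside 22.4 and 22.8% lower and 11.5 and 12.2% higher over all genes. The exception was Stat3, a signal-dependent factor that was named after its values were seen. Sox9, which was not on that list, was likewise not called. Of 14 genes of radial glia and immature astrocytes, 8 were highest in replicate 3, beside 39.0% of all expressed genes. Among the 8 were Prom1 (20.7, 24.6 and 119.5 CPM) and the growth factor carrier Igfbp2 (859.0, 446.8 and 2567 CPM). The filament gene Vim was lowest in replicate 3 (12330, 11520 and 8311 CPM). Ptprz1 had 34.5 to 72.9 CPM and Fabp7 12.5 to 17.9 CPM. In mKate2- SB28, 8 of the 14 were lower and 2 higher, and in mKate2+ SB28, 7 and 2, beside 22.4 and 22.8% lower and 11.5 and 12.2% higher over all genes. The higher ones in both were Hmgb2 and Top2a, named after their values were seen, which are known from dividing cells in general.

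**Figure D5:**
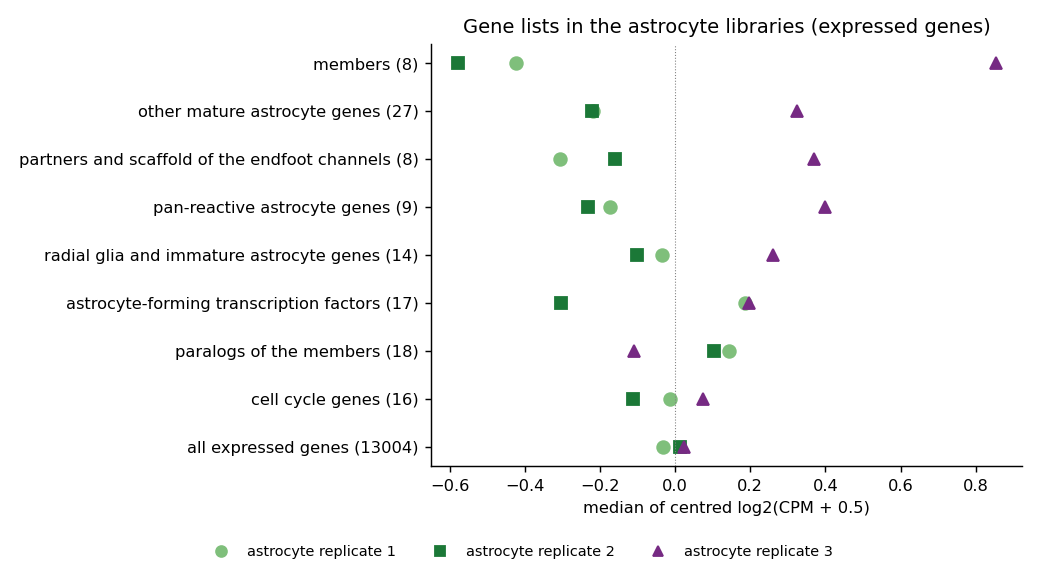
Median of centred log2(CPM + 0.5) over the expressed genes of each list (number in brackets) in the 3 astrocyte libraries. Replicate 3 lies highest for mature, endfoot, reactive and immature genes, lowest for paralogs, and near the other libraries for all genes.

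The partners that hold Aqp4 and Mlc1 at endfeet gave a mixed picture. Of 8 such genes, 5 were lower in mKate2- SB28 and in mKate2+ SB28 than in astrocytes and 0 higher, beside 22.4 and 22.8% lower over all genes. Hepacam, which binds Mlc1 and brings it to the membrane, had 69.5, 44.3 and 42.0 CPM in astrocyte replicates 1, 2 and 3 (log2 fold change -6.54 in mKate2- SB28, edgeR adjusted p = 5.65e-05) and so did not share the high level of Mlc1 in replicate 3. Dmd, which encodes dystrophin, had 22.5, 31.5 and 63.7 CPM (log2 fold change -6.09, edgeR adjusted p = 3.21e-05). The chloride channel Clcn2 fell by less, with a log2 fold change of -2.17 (edgeR adjusted p = 3.18e-05), and Kcnj10 had -7.38 (edgeR adjusted p = 0.000103). Dag1, the most abundant, had 401.7, 455.6 and 701.6 CPM and a log2 fold change of -0.92.

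Relatives of the genes by sequence varied among themselves. Of 23 paralogs, 18 were expressed in astrocytes, and 12 of these were highest in replicate 1 and 6 in replicate 3. Over all expressed genes these shares were 34.1 and 39.0%. The median of the paralogs in replicate 3 was -0.11. Aldoa, the common aldolase, was far more abundant than Aldoc, with 2103, 1837 and 1458 CPM in astrocytes and a log2 fold change of -0.11 in mKate2- SB28 (edgeR adjusted p = 0.607). Aqp1, a water channel of epithelia chosen here after its values were seen, was lowest where Aqp4 was highest, with 236.0, 182.0 and 45.3 CPM. Fgfr2 had 34.5, 37.8 and 50.8 CPM and a log2 fold change of -5.70 (edgeR adjusted p = 1.37e-05). In mKate2- SB28, 6 of the 18 were lower, namely Fgfr2, Aqp11, Nes, Sox8, S100a1 and S100a13, and Aldh1l2 and S100a10 were higher. In mKate2+ SB28, 4 were lower and 3 higher, the last including S100a6, while S100a1 and S100a13 were not called. S100a1, S100a13 and S100a6 had 9.52, 9.06 and 1410 CPM in mKate2+ SB28 replicate 2. In the other mKate2+ SB28 libraries they had at most 5.71, 3.25 and 464.8 CPM. The counts in mKate2+ SB28 thus lean on 1 library, and they were not repeated without it. The shares over all genes were 22.4 and 22.8% lower and 11.5 and 12.2% higher, so that 4 of 18 is near the background. S100a10, with 209.2, 203.3 and 126.6 CPM in astrocytes, was far above S100b by counts.

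Genes of reactive astrocytes shared the high library of Gfap in part. Of 11 genes, 9 were expressed and 6 of these were highest in replicate 3, beside 39.0% of all expressed genes, with a median of 0.40 there. Cp, which encodes ceruloplasmin, had 333.7, 429.6 and 1173 CPM, Steap4 2.54, 4.95 and 8.99 CPM, S1pr3 54.2, 67.5 and 70.2 CPM and Serpina3n 18.8, 16.8 and 27.1 CPM. Lcn2, a secreted marker of strong reactivity chosen here after its values were seen, had 0.0409, 0.0917 and 17.0 CPM. Cxcl10 was highest in replicate 1 (11.3, 2.75 and 7.37 CPM) and Cd44 in replicate 2 (359.0, 459.0 and 336.8 CPM). Of the 9, 5 were lower and 1, the heat shock protein gene Hspb1 (named after its values were seen), was higher in each SB28 population than in astrocytes, beside 22.4 and 22.8% lower and 11.5 and 12.2% higher over all genes.

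Markers of other cell types were read beside these values. Of the microglia markers, Tmem119 had 39.1, 24.8 and 30.5 CPM in astrocyte replicates 1, 2 and 3 and 47.3 to 56.5 CPM in the mKate2- SB28 libraries, while Cx3cr1, C1qa and Itgam were at most 0.245 CPM in astrocytes. Of 6 oligodendrocyte progenitor markers, 4 were expressed, summing to 846.3, 442.8 and 505.8 CPM, mostly Olig1 (541.0, 241.3 and 304.2 CPM) and Olig2, whereas Sox10 was at most 0.0611 CPM and Gpr17 was at 0. Of 7 oligodendrocyte markers, only Cnp was expressed, and of 12 neuron and neuroblast markers 8 were, summing to 155.6, 190.2 and 175.7 CPM with Map2 the most abundant and Rbfox3 at 0. Gad2, which encodes an enzyme of GABA synthesis, had 16.5, 16.3 and 42.1 CPM in astrocyte replicates 1, 2 and 3 and so was also highest in replicate 3 (log2 fold change -5.57 in mKate2- SB28, edgeR adjusted p = 8.88e-05). Gad1 had 1.23, 0.611 and 2.08 CPM, Stmn2 11.4, 43.4 and 38.5 CPM and Dlx1 40.3, 41.6 and 23.1 CPM, and these 3 were also lower in mKate2- SB28. Of the 8 tested neuron and neuroblast markers, 4 were called lower and 0 higher in mKate2- SB28. In mKate2+ SB28, 5 were lower and 1, Tubb3 (named after its values were seen), was higher. The shares over all genes were 22.4 and 22.8% lower and 11.5 and 12.2% higher. Pericyte and fibroblast markers summed to 1411, 1492 and 1053 CPM, mostly Col1a2.

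A pair of other markers stood far highest in replicate 3, as Aldoc and Aqp4 did. Among 6 endothelial markers the sum was 7.57, 14.4 and 199.3 CPM, mostly from Flt1 (5.64, 12.4 and 192.2 CPM), which had 47.5 to 60.2 CPM in the SB28 libraries, while Cldn5 was at 0, Pecam1 was at most 1.02 CPM and Cdh5 had 0.654, 0.367 and 5.63 CPM. Among 5 ependymal and choroid plexus markers the sum was 11.8, 9.17 and 77.4 CPM, mostly from Foxj1 (8.91, 6.73 and 75.9 CPM), while Rarres2 was lowest in replicate 3 (2.41, 1.96 and 0.768 CPM), Ttr was at most 0.367 CPM and Ccdc153 had 0, 0 and 0.655 CPM. Of the 16 cell cycle genes, 11 were highest in replicate 3, beside 39.0% of all expressed genes. Their medians were -0.015, -0.11 and 0.074 and their sums 1089, 1071 and 1340 CPM in astrocyte replicates 1, 2 and 3. Of the 16, 15 were higher in each SB28 population, beside 11.5 and 12.2% of all genes. The counts of mRNAs of the mitochondrial genome took 1.76, 2.91 and 3.13% of the astrocyte libraries. Long genes (10020 bases of exon) lay 0.235 below, 0.011 above and 0.224 above the gene mean on the log2 scale in replicates 1, 2 and 3 by a fitted trend. The part of cell type makeup or RNA quality in the high values of replicate 3 was not tested.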

How the data were processed

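The data were read counts per gene in 9 RNA-seq libraries. According to the submitters' processing notes, the authors trimmed reads with Trimmomatic 0.36, mapped them to GRCm38 with STAR 2.5.2b and counted them with featureCounts of Subread 1.5.2, and they deposited counts without normalization. The annotation release and strand setting are not given in the sources used here. Symbols, positions and exonic lengths came from GENCODE M21, which names 49056 of the 49315 gene IDs, and promoter windows from RefSeq. IDs without a name held at most 0.0136% of a library.

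CPM was computed over all counts, and TPM from exonic lengths. Groups were compared in pairs, with their 6 libraries only, by edgeR 4.0.16 (R 4.3.3) after TMM normalization, for genes above 1 CPM in at least 2 libraries. The calling thresholds against astrocytes follow the study. Between the SB28 populations calls used an adjusted p below 0.05, with the study's thresholds counted beside them. The SE is the log2 fold change divided by the square root of F. The test was checked on simulated data. Alternatives were DESeq2 1.42.0, upper-quartile scaling, other filters, a joint fit, a replicate block, TMM-scaled CPM, a pseudocount of 0.1, removal of a gene length trend and leaving out each library. The genes, lists and tests were chosen with earlier results of these data known. Besides the 9 genes, of each list the text names up to 4 called genes with the largest change in mKate2- SB28 and the 2 most abundant in astrocytes, every called paralog and endfoot partner, and the genes most like Gfap or the mean pattern, apart from a few that are not reported here. At 24454561 counts or more per library, spread between the 3 replicates limits precision more than counting, except for genes under about 1 CPM.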

Additional observations from a re-analysis of the deposited data

How the results depend on the processing

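All 7 calls of lower genes in each comparison with astrocytes kept their direction and side of the threshold under every alternative that could test them. With at least 10 counts required in every library, Gfap and Aqp4 were not tested, and DESeq2 gave no adjusted p for Aqp4. The range of log2 fold changes with each library left out was -7.87 to -4.96 for Aqp4 and -6.43 to -4.21 for Aldoc in mKate2- SB28, and -7.36 to -4.80 and -6.63 to -4.43 in mKate2+ SB28. Sox9 was past the size threshold in mKate2+ SB28 with upper-quartile scaling (-1.05) and with at least 10 counts in every library (-1.02), and without replicate 2 of either SB28 group. The groups were sorted from 3 distinct co-cultures and share replicate numbers, but no source used here says that a number marks a co-culture. Same-numbered libraries did not deviate together throughout (correlations from -0.185 to 0.275), so the numbers were not taken as pairs. Between the SB28 populations the same-numbered correlations were -0.0349, 0.117 and 0.275 for replicates 1, 2 and 3, and the unlike-numbered ones ran from -0.224 to 0.104. With a replicate block, 7 genes were called lower in each comparison with astrocytes, 2969 genes in all in mKate2- SB28 and 2966 in mKate2+ SB28, and the log2 fold changes of Aldoc were -5.12 and -5.42. None of the 6 genes tested between the SB28 populations was called with the block. Removing the gene length trend moved the log2 ratio of astrocyte replicate 3 over the mean of the others from -0.03 to -0.11 for Sox9. With TMM scaling, the highest median moved from astrocyte replicate 3 to replicate 1 for the transcription factors (0.23, -0.32 and 0.18 in replicates 1, 2 and 3) and for all genes (0.0071, -0.0040 and 0.0038). The median of the oligodendrocyte markers in replicate 3 moved to -0.12 and that of the endothelial markers to 2.93. Counts of 1 to 13 per SB28 library limit what can be said of differences between SB28 groups in Gfap, Aqp4 and S100b, which were not tested there.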
